A study of Drosophila mojavensis with 127 samples.

Results

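A set of 100 transcripts of Drosophila mojavensis was examined that differed between flies of Baja California and of the mainland in males while differing little between the same regions in females. The members were chosen out of 14528 measured transcripts. For each sex, the region difference was the mean of the San Quintin and Punta Prieta groups minus the mean of the Organ Pipe National Monument (OPNM) and Punta Onah groups, on the log2 scale. A transcript was eligible when its region difference in females was under 0.2 in size and its mean difference between males and females was under 3, which 10518 transcripts met. The 100 of these with the largest region difference in males, in either direction, formed the set. Of the members, 69 were higher and 31 were lower in Baja California males, and they are called higher members and lower members here. The members were thus selected on the measured male region difference, with limits on the female region and sex differences, and these values are given as a description with no test.

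The flies were wild-type laboratory stocks from 4 localities, reared on fermenting tissue of 2 cacti, the organ pipe cactus (Stenocereus thurberi) and pitaya agria (Stenocereus gummosus). San Quintin (source SQ08) and Punta Prieta (source PP08) lie in Baja California, Organ Pipe National Monument (source OPNM08) lies in Arizona and Punta Onah (source PO07) lies in Sonora. Males and females, mated and nonmated, on organ pipe and on agria, gave 32 groups with 3 or 4 replicates each. The 29 Baja California and 32 mainland male replicates were set beside 62 female replicates. Each population was represented by 1 named source, so that a difference between regions rests on 2 stocks against 2. Total RNA was labelled with Cy3 and hybridised to single-colour NimbleGen arrays of the 12-plex format. The labels give neither the tissue nor the age of the flies, and for rearing they point to an older published method. The deposited values are log2 expression values, so that a difference of 1 is 2-fold. The files pair no identifier with a gene name and the gene table of the species matched 0 of them, so members are given by transcript identifier, and no marker gene could be looked up to check a tissue. In such bulk RNA, fewer cells of a type and less RNA per cell cannot be told apart.

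Drosophila mojavensis breeds in rotting columnar cacti of the Sonoran Desert; stocks of Baja California are associated with agria and those of the mainland with organ pipe, and stocks of the regions show partial mating isolation. In Drosophila males much of the sex-limited expression comes from the testis and from the accessory glands and ejaculatory tissues, whose products are passed to the female at mating. Expression that differs between the sexes in flies is set downstream of the sex-determination pathway.

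Several arrays stood apart and bear directly on the set. The 12 Punta Onah male arrays of 3 groups (agria mated, agria nonmated and organ pipe mated) differed from the other 49 male replicates in the level of the members. Averaged over the 69 higher members, these 12 arrays had 9.25 ± 0.16 (SD, lowest 9.02, highest 9.55), against 10.68 ± 0.25 (lowest 10.08, highest 11.18) in the other 49, with no overlap. Over the 31 lower members the 12 arrays had 9.21 ± 0.25 and the other 49 had 8.24 ± 0.30. The 4 arrays of Punta Onah organ pipe nonmated males did not stand with them: they had 10.42 ± 0.10 over the higher and 8.42 ± 0.09 over the lower members. All these male arrays entered the averages that chose the members, so a gap over the members is favoured by the rule and is no test. The 99th percentile of all transcripts was also lower on the 12 arrays (mean 14.06, between 13.92 and 14.20) than on the other 49 (mean 14.23, between 14.11 and 14.33). Low values were not confined to the 12 arrays. San Quintin organ pipe males averaged 14.13 (nonmated) and 14.16 (mated), and San Quintin organ pipe nonmated females 14.06 (lowest 13.82). The median of all transcripts was 10.60 on the 12 arrays and 10.52 on the other 49. With quantile normalization applied again, the rule chose 72 of the 100 members, 58 of the higher and 14 of the 31 lower members. With a shift to a common median it chose 87, 65 of the higher and 22 of the lower members. All 100 members kept their direction under both. Beyond this, the part of these array-wide differences in the results was not tested. In the numbering of the titles the 12 arrays come first, and the 4 Punta Onah organ pipe nonmated arrays follow. Slides were not used here, so the difference between these Punta Onah groups cannot be told apart from array order. In addition, 2 male arrays, replicate 1 of OPNM agria mated males and replicate 1 of Punta Prieta organ pipe nonmated males, lay nearest the females on an index of 200 strongly sex-biased transcripts, with index values of 1.06 and 2.80, while the 12 Punta Onah arrays had 4.08 to 4.72. Without these 2 arrays the rule chose 96 of the same 100 members. Without the 12 Punta Onah arrays it chose 38 of them.

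The region difference in males lay between 0.63 and 2.17 over the higher members, with a median of 0.74, and between -1.14 and -0.64 over the lower members, with a median of -0.72. The median size was 0.72 over the members and 0.14 over all transcripts. The difference of the last member inside was 0.63 (0.632) and that of the first transcript outside -0.63 (0.629 in size). A further 276 transcripts had a male region difference at least as large as the last member but failed a limit, 265 of them that on the female difference and 25 that on the sex difference. In females, 50 members had a positive and 50 a negative region difference, with medians of 0.05 over the higher and -0.12 over the lower members. Of the 69 higher members, 44 also had a positive difference in females, and of the 31 lower members, 25 also had a negative one. For these members the female difference was small and not opposite.

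The members can be described by how the 4 populations lay, which rests on the same male means as the rule and is no test. The male means of San Quintin and Punta Prieta lay both above, or both below, those of OPNM and Punta Onah for 69 members, 41 higher and 28 lower; among all transcripts this was so for 37.2%. For the other 31 members, 28 of them higher, at least 1 mainland mean lay within or beyond the Baja California means. The difference from Punta Onah had the direction of the set in all 100 members, and that from OPNM in 76. Over the higher members the median difference of Baja California from OPNM was 0.33 and that from Punta Onah 1.33. Over the lower members the median difference from OPNM was -0.55 and that from Punta Onah -1.02. Among the 28 higher members whose populations were not separated, Baja California exceeded Punta Onah by a median of 1.74 and lay below OPNM, with a median difference of -0.19. No member had all 29 Baja California replicates clear of all 32 mainland replicates, and 6 transcripts of the whole array did (0.0413%). Of the 31 members that were not separated, the male mean of Punta Onah lay beyond those of the other 3 populations in 30, and that of OPNM did so in 1. Separated members could also differ mainly from Punta Onah: FBtr0167575 differed from OPNM by 0.18 and from Punta Onah by 1.61, and FBtr0166760 from OPNM by 0.16 and from Punta Onah by 1.79.

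**Figure D1:**
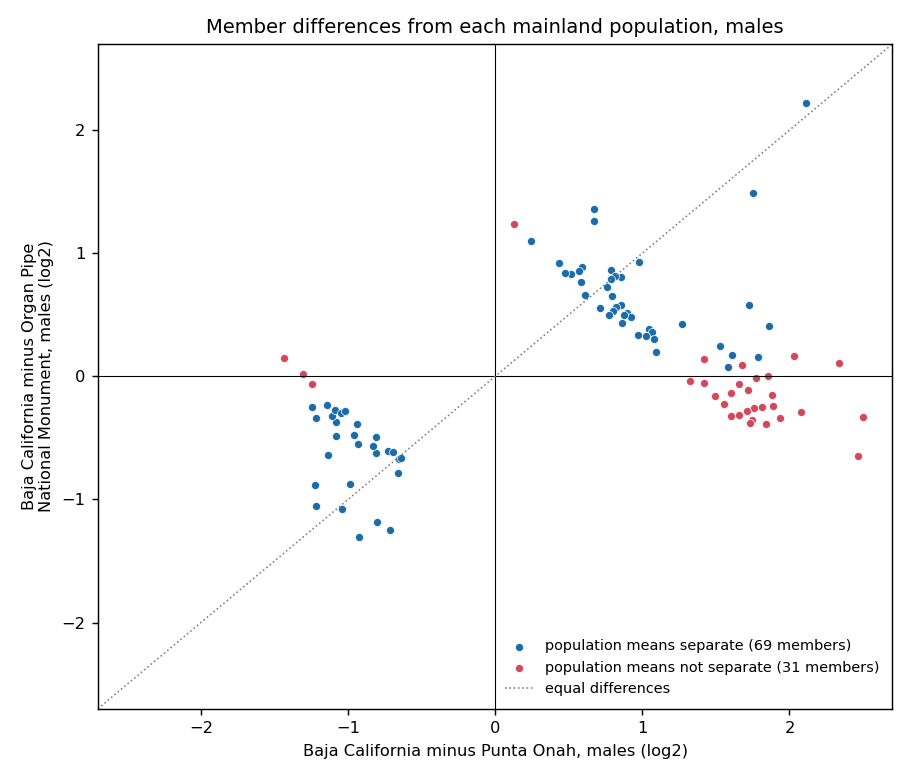
Difference of each of the 100 members between Baja California and OPNM males (vertical axis, log2) against that between Baja California and Punta Onah males (horizontal axis, log2), each point 1 member and the dotted line marking equal differences. All 100 points have the sign of the set on the horizontal axis and 76 have it on the vertical axis; the higher members near and below the horizontal zero line had a large difference from Punta Onah and a difference from OPNM near or below 0.

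The group means show where the set changed. Over the higher members, San Quintin males lay between 10.55 (organ pipe nonmated) and 10.99 (agria nonmated), and Punta Prieta males between 10.73 (organ pipe nonmated) and 10.99 (organ pipe mated). OPNM males lay between 10.37 (agria mated) and 10.58 (organ pipe mated). Punta Onah males had 9.17 (agria nonmated), 9.23 (agria mated) and 9.36 (organ pipe mated), against 10.42 in organ pipe nonmated males. Thus all Baja California group means but that of San Quintin organ pipe nonmated males exceeded every mainland group mean, and the step from OPNM to Baja California was smaller than that between the Punta Onah groups. Over the lower members, San Quintin males lay between 7.92 and 8.18 and Punta Prieta males between 7.83 and 8.04, all below OPNM males (8.43 to 8.72) and below Punta Onah organ pipe nonmated males (8.42). The remaining Punta Onah groups had 9.02 to 9.38. Over the lower members Baja California thus lay below both mainland populations, also with the 3 Punta Onah groups set aside. These male values chose the members, so this order is favoured by the rule and is no test. Without the arrays of the 3 groups the rule chose 12 of the 31 lower and 26 of the 69 higher members. Females had 10.00 ± 0.18 (SD, n = 62) over the higher members, with population means of 9.97 to 10.05. They had 8.60 ± 0.11 over the lower members, with population means of 8.55 to 8.64.

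**Figure D2:**
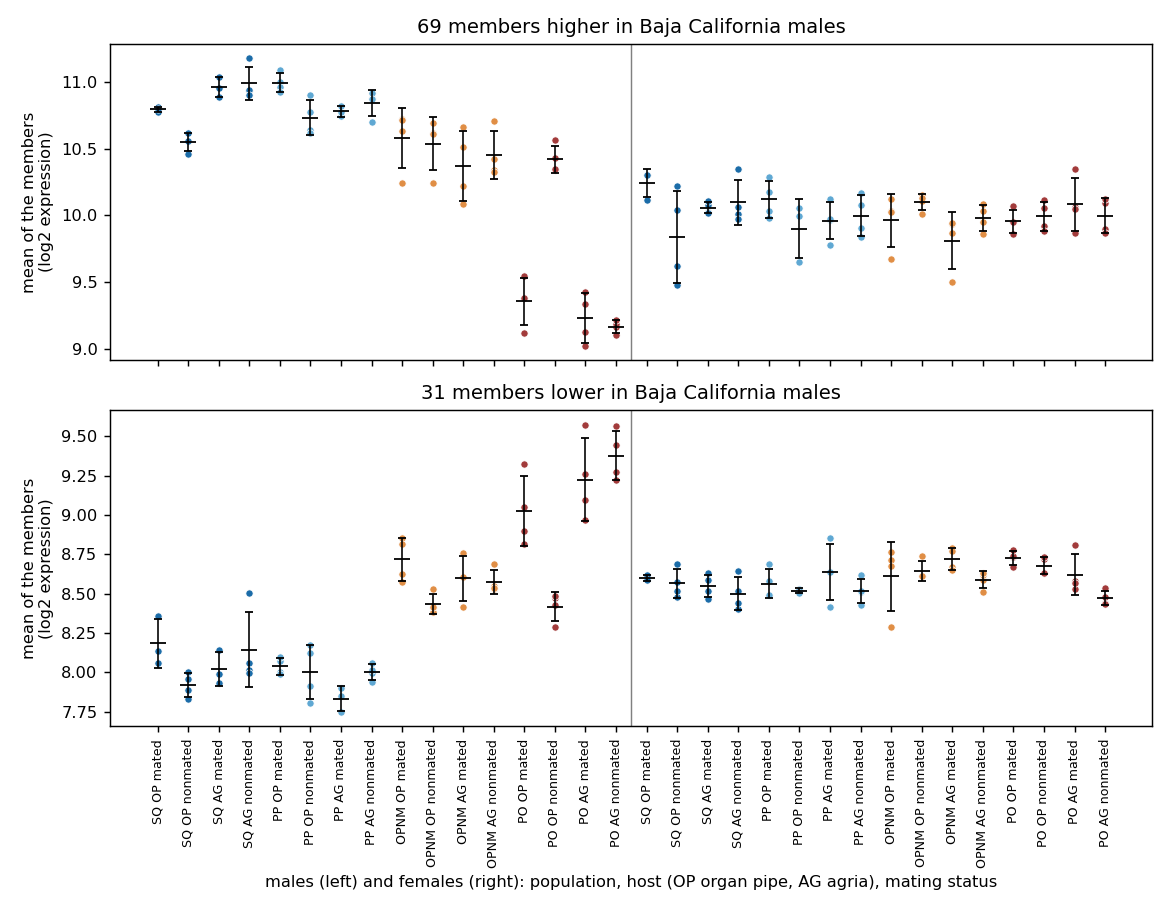
Mean log2 expression of the higher members and of the lower members in every replicate, by group, with males left and females right and populations in the order San Quintin, Punta Prieta, OPNM, Punta Onah. Punta Onah males of 3 groups lie between 9.02 and 9.55 over the higher members, below the other male replicates, while the female replicates lie between 9.48 and 10.35. Horizontal bars are group means and error bars SDs.

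**Figure D3:**
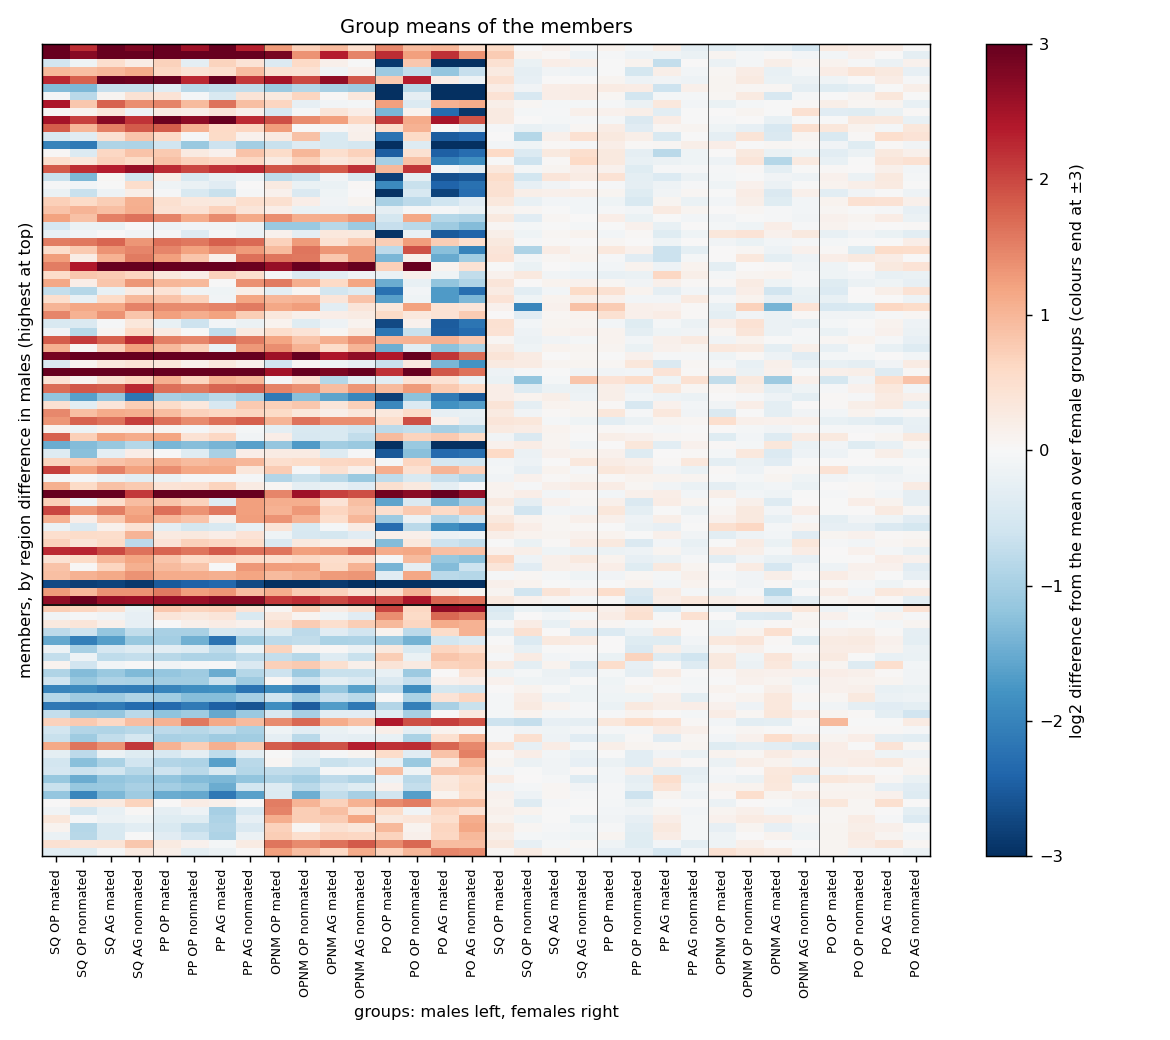
Group means of the 100 members as differences from the mean over the female groups (log2, colours end at 3 in either direction), members ordered by their male region difference with the highest at the top, groups of males left and females right. One of 3 Punta Onah groups (agria mated, agria nonmated, organ pipe mated) had the lowest male group mean in 54 of the 69 higher members and the highest in 24 of the 31 lower members, and 4 of the 1600 female cells lie more than 1 from the female mean. The rule favours low mainland male means in the higher members and high ones in the lower members, so the male counts are descriptions.

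The region difference of males was also taken within each of the 4 combinations of host and mating status. These combinations make up the average that chose the members, as do the males that remain when arrays are left out. Agreement in direction is thus favoured by the rule and is no test. The region difference had the direction of the set in all 100 members among organ pipe mated, agria mated and agria nonmated males. Among organ pipe nonmated males, the combination in which Punta Onah did not stand apart, it had that direction in 70: 41 of the 69 higher members, with a median of 0.12, and 29 of the 31 lower members, with a median of -0.44. In the other combinations the medians of the higher members were 0.91 (organ pipe mated), 0.94 (agria mated) and 1.13 (agria nonmated). Those of the lower members were -0.71 (organ pipe mated), -1.02 (agria mated) and -0.90 (agria nonmated). Without the 12 Punta Onah arrays, 85 members kept their direction, with medians of 0.33 over the higher and -0.38 over the lower members. Without Punta Onah altogether 76 did so, and the rule would then choose 24 of the 100 members.

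The 2 members with the most positive and the 2 with the most negative region difference are given in full, and in each of them both Baja California means lay on the same side of both mainland means. Other members with large differences did not show this: FBtr0172562, the third by size (1.22), differed from OPNM males by 0.11 and from Punta Onah males by 2.33, with a region difference of -0.90 in organ pipe nonmated males. FBtr0175386, the highest of the set, had a region difference of 2.17 in males and 0.16 in females. In males it lay between 10.18 and 12.20 in San Quintin (median 11.10, n = 14), between 9.96 and 12.24 in Punta Prieta (median 11.64, n = 15), between 8.18 and 10.02 in OPNM (median 8.95, n = 16) and between 8.25 and 10.00 in Punta Onah (median 9.09, n = 16). Only the lowest Baja California male came within the range of the mainland males, whose means of 9.03 ± 0.55 and 9.15 ± 0.52 (SD) in OPNM and Punta Onah did not differ beyond their spread. In females the medians were 8.30 in San Quintin, 8.19 in Punta Prieta, 7.79 in OPNM and 8.32 in Punta Onah, so that the medians of San Quintin, Punta Prieta and Punta Onah females lay within 0.2 of each other.

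FBtr0172763 had a region difference of 1.62 in males and 0.06 in females, and was the most male-biased of the 4, with a male minus female difference of 2.69. In males it lay between 11.97 and 13.41 in San Quintin (median 12.61), between 12.00 and 13.54 in Punta Prieta (median 12.99), between 10.34 and 12.65 in OPNM (median 11.20) and between 9.77 and 11.84 in Punta Onah (median 11.01). Punta Onah males did not reach the lowest Baja California male, and some OPNM males did. Female medians were 9.38 in San Quintin, 9.27 in Punta Prieta, 9.33 in OPNM and 9.25 in Punta Onah, a span smaller than the SD within any of them.

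FBtr0172644 and FBtr0174584 had the most negative differences. FBtr0172644 lay between 5.96 and 7.91 in San Quintin males (median 6.46), between 5.96 and 7.20 in Punta Prieta males (median 6.53), between 6.35 and 8.49 in OPNM males (median 7.70) and between 6.65 and 8.49 in Punta Onah males (median 7.75). Its region difference was -1.14 in males and -0.19 in females, and its Baja California values lay near the low end of the values on these arrays, the lowest of which was 4.64. FBtr0174584 lay between 9.62 and 10.51 in San Quintin males (median 9.84), between 8.95 and 9.82 in Punta Prieta males (median 9.56), between 10.28 and 11.55 in OPNM males (median 11.02) and between 9.66 and 11.31 in Punta Onah males (median 10.69). No Punta Prieta male reached the lowest OPNM male, while Punta Onah males overlapped those of both Baja California populations. Its region difference was -1.11 in males and -0.20 in females, the female value lying just inside the limit. In females the medians of FBtr0172644 were 6.58 in San Quintin, 6.28 in Punta Prieta, 6.80 in OPNM and 6.57 in Punta Onah. Those of FBtr0174584 were 9.40 in San Quintin, 9.16 in Punta Prieta, 9.52 in OPNM and 9.53 in Punta Onah, so that Baja California females also had the lower medians.

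**Figure D4:**
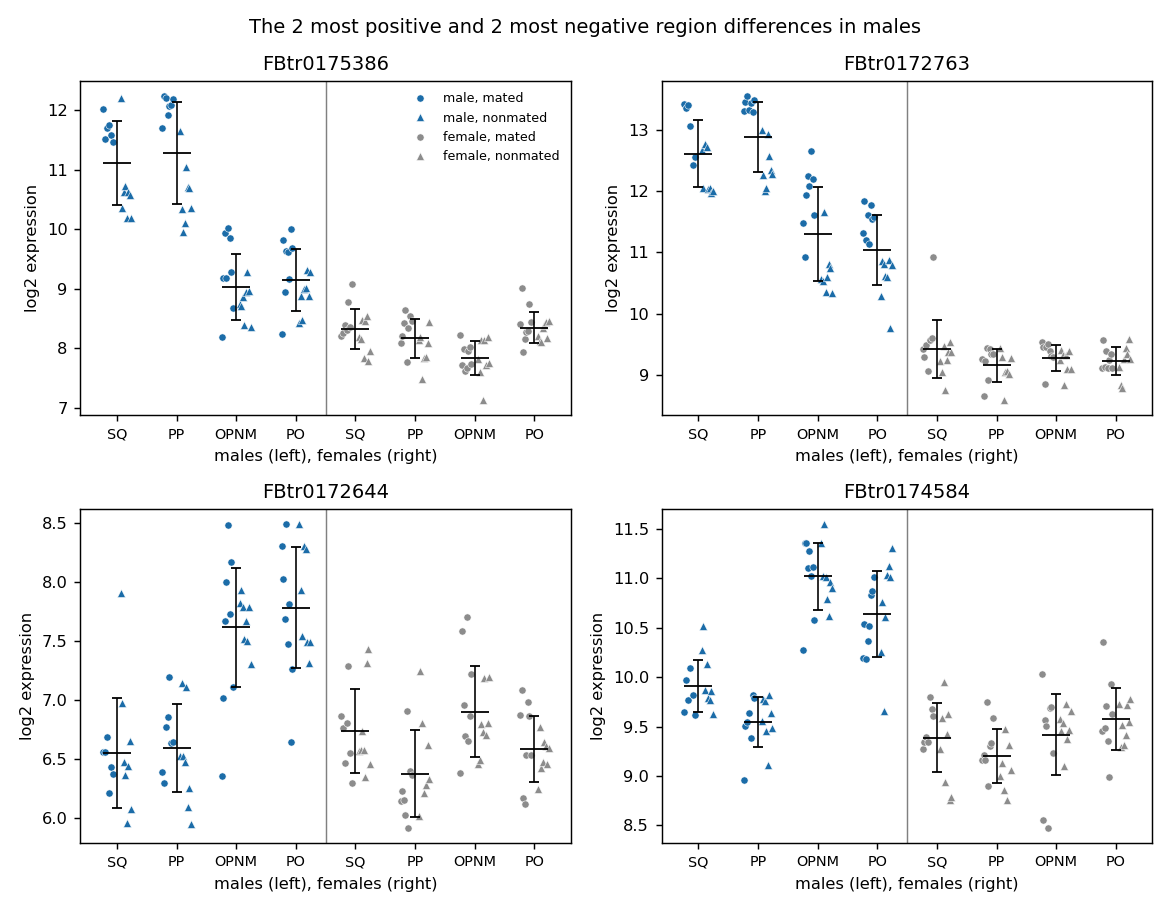
Log2 expression of the 2 members with the most positive and the 2 with the most negative region difference in males, in every replicate, by population, males left and females right, with mated and nonmated flies as separate symbols, horizontal bars at the means and error bars for SDs. FBtr0175386 and FBtr0172763 are higher, and FBtr0172644 and FBtr0174584 lower, in San Quintin and Punta Prieta males than in OPNM and Punta Onah males, while the female panels overlap.

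The set was not mainly made of strongly sex-biased transcripts. A male minus female difference above 1 was found in 18 members (16 higher, 2 lower) and one below -1 in 9 (5 higher, 4 lower), and 73 lay between. Among all eligible transcripts 8.93% were male-biased and 21.7% female-biased in this way; since the rule limited the sex difference, these shares are descriptions only. The rule, with a large region difference in males and a small one in females, also fixed that the sex difference varies with region, so the next values only describe the members. Over the higher members the median male minus female difference was 0.67 in Baja California and 0.04 on the mainland. Over the lower members it was -0.58 in Baja California and 0.01 on the mainland. In 17 higher members males exceeded females in Baja California and females exceeded males on the mainland, and in 9 lower members the reverse held. The members were also more variable than most transcripts: the median SD within groups was 0.39 in males over the members and 0.28 over all transcripts. In females it was 0.32 over the members and 0.25 over all transcripts. The rule takes the largest male differences, which favours variable male values, so these SDs are descriptions only. The median level in males was 10.22 for the higher and 8.19 for the lower members, against 10.53 over all transcripts.

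Comparisons that the rule did not use were tested with limma in a fit to all 14528 transcripts, with Benjamini-Hochberg adjustment across them. A transcript passed at an adjusted p under 0.05. Counts from fits with other settings or fewer samples are mostly given without the share of all transcripts. That share can move as well, so such a count alone is no result about the members. Nothing in the labels states that replicates came from separate cultures, so a p-value here is set against the spread of these samples alone, and that spread could be technical.

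The 2 mainland populations differed in males in 80 of the 100 members, against 58.2% of all transcripts; 51 were higher in OPNM and 29 lower, against 26.3% and 31.8% of all transcripts. The higher and lower members moved in opposite directions: 48 of the 69 higher members were higher in OPNM and 9 lower, and 20 of the 31 lower members were lower in OPNM and 3 higher. Medians of OPNM minus Punta Onah were 0.84 over the higher and -0.38 over the lower members, and -0.04 over all transcripts. The contrast weighs groups differently from the region average, but both take in the 12 Punta Onah arrays. FBtr0168369 averaged 12.70 ± 0.58 in OPNM males and 9.58 ± 1.94 in Punta Onah males (SD, n = 16 each), a difference of 3.12 ± 0.12 (SE, adjusted p = 2.45e-41). FBtr0175156 had 14.60 ± 0.30 in OPNM males and 12.47 ± 1.12 in Punta Onah males, a difference of 2.13 ± 0.07 (SE, adjusted p = 1.26e-44). In the other direction, FBtr0171088 had 8.38 ± 0.55 in OPNM males and 9.97 ± 0.93 in Punta Onah males (-1.58 ± 0.16, SE), and FBtr0164659 had 6.71 ± 0.38 in OPNM males and 8.04 ± 0.54 in Punta Onah males (-1.32 ± 0.13, SE). The large SDs in Punta Onah males came with 2 levels within that population, those of organ pipe nonmated males and of the other 3 groups. Among organ pipe nonmated males alone, with 4 replicates a population, 15 members passed (5.29% of all transcripts), and FBtr0168369 then differed by 0.0025 and FBtr0175156 by -0.07. Of the 4 members given in full above, FBtr0174584 (0.38 ± 0.11, SE, adjusted p = 0.00240) and FBtr0172763 (0.26 ± 0.11, SE, adjusted p = 0.0386) passed, and FBtr0175386 and FBtr0172644 had adjusted p-values of 0.484 and 0.294.

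In females the mainland populations differed in 9 members, against 4.8% of all transcripts; 5 were higher in OPNM and 4 lower, against 2.2% higher and 2.6% lower among all transcripts. Leaving out a replicate number left 3 to 7 members, while array weights gave 34 members and 24.6% of all transcripts. FBtr0161112 had 11.47 ± 0.37 in OPNM females and 10.83 ± 0.36 in Punta Onah females (SD, n = 16 each), a difference of 0.64 ± 0.10 (SE, adjusted p = 8.91e-07). FBtr0175386 was lower in OPNM females by -0.51 ± 0.14 (SE, adjusted p = 0.0145), a difference within the mainland that the region average of females does not show. The mainland difference itself differed between the sexes in 70 members, against 46.3% of all transcripts, 44 higher members with a more positive (22.2% of all transcripts) and 17 lower members with a more negative value in males (24.2% of all transcripts). Among organ pipe nonmated flies alone, with fewer replicates, limma found 0 members and 2 transcripts in all that differed in this way, with 17 members and 1381 transcripts at an unadjusted p under 0.05.

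Males of San Quintin differed from those of Punta Prieta in 20 members, against 14.4% of all transcripts, and none of these differed by 2-fold or more. In San Quintin 12 were higher and 8 lower, against 7.86% and 6.49% of all transcripts. FBtr0175053 had 8.44 ± 0.24 in San Quintin males (SD, n = 14) and 7.93 ± 0.26 in Punta Prieta males (n = 15), a difference of 0.49 ± 0.09 (SE, adjusted p = 0.000120). FBtr0168369 had 11.72 ± 0.70 in San Quintin males and 12.37 ± 0.48 in Punta Prieta males (-0.66 ± 0.13, SE, adjusted p = 0.000182). The median difference was -0.0041 over the higher and 0.06 over the lower members. In females 1 member passed (1.95% of all transcripts did), FBtr0162155, with 8.91 ± 0.39 in San Quintin and 9.70 ± 0.43 in Punta Prieta females (-0.81 ± 0.17, SE, adjusted p = 0.00253). The difference between these populations depended on sex in 5 members, against 1.67% of all transcripts. Without Punta Onah in the fit 18 members passed in males and 2 depended on sex, counts given without the share of all transcripts. Leaving out the replicates numbered 2 left 3 members in males, and leaving out those numbered 1 left 11, again without that share. Without the replicates numbered 2, 0 members and 2 of all transcripts depended on sex in limma (15 members at an unadjusted p under 0.05). Without those numbered 1, 0 members and 36 of all transcripts did so (17 members at an unadjusted p under 0.05). These zeros are thus no result about the members.

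Host cactus had small effects over the 4 populations as a whole. In males 12 members passed, against 2% of all transcripts: the 5 that were higher on organ pipe were all higher members and the 7 that were lower were all lower members, against 0.688% higher and 1.31% lower among all transcripts. FBtr0167575 averaged 12.84 ± 0.66 in organ pipe males (SD, n = 31) and 12.31 ± 1.16 in agria males (n = 30), a difference of 0.48 ± 0.09 (SE, adjusted p = 0.000885). FBtr0165836 averaged 6.70 ± 0.41 in organ pipe males and 7.18 ± 0.79 in agria males (-0.44 ± 0.09, SE, adjusted p = 0.00240). Without Punta Onah 0 members and 33 transcripts passed in limma, with 24 members and 1233 transcripts at an unadjusted p under 0.05, and the difference of FBtr0167575 was 0.02. In females 0 members and 0% of all transcripts passed in limma; 6 members had an unadjusted p under 0.05, against 1301 of all transcripts, and the smallest adjusted p of a member was 0.170. With array weights 19 members passed in females. Without the replicates numbered 2, 0 members and 30 of all transcripts passed in males in limma, with 31 members at an unadjusted p under 0.05. The host difference depended on sex in 6 members, against 1.33% of all transcripts, and in 1 member without Punta Onah. Without the replicates numbered 4 it did so in 0 members and 33 of all transcripts, with 25 members at an unadjusted p under 0.05.

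Most members differed by host in nonmated Punta Onah males, a comparison chosen, like those within each population that follow, after the values had been seen. There 74 members passed, against 40.4% of all transcripts, and 52 of the members differed by 2-fold or more. Of the 69 higher members 44 were higher and 3 lower on organ pipe, and of the 31 lower members 24 were lower and 3 higher; 16.9% of all transcripts were higher and 23.6% lower. FBtr0168369 had 12.97, 12.66, 12.83 and 12.81 in the 4 organ pipe nonmated males of Punta Onah, against 8.61, 8.14, 8.45 and 8.41 in the 4 agria nonmated males. The groups did not overlap, and the difference of 4.41 ± 0.24 (SE, adjusted p = 4.56e-29) was 21.3-fold. Its values in organ pipe mated males of Punta Onah were 8.36, 8.88, 9.07 and 8.73 and in agria mated males 8.64, 8.26, 8.33 and 8.21, so that the organ pipe nonmated males stood alone. FBtr0175574, a lower member, had 6.57, 7.11, 7.56 and 7.31 in organ pipe nonmated males and 9.14, 9.21, 9.18 and 8.47 in agria nonmated males, a difference of -1.86 ± 0.20 (SE, adjusted p = 1.13e-12). FBtr0175156 and FBtr0166354 differed by 2.17 ± 0.15 and -1.51 ± 0.17 (SE), and both were without overlap between the groups.

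In mated Punta Onah males 6 members passed for host, against 1.85% of all transcripts, all higher members and all higher on organ pipe, against 0.977% higher and 0.874% lower among all transcripts. Leaving out a replicate number left 1 to 3 members, and the fit to males alone left 1. Among these FBtr0166760 differed by 0.95 ± 0.21 (SE, adjusted p = 0.00576) and FBtr0162773 by 1.05 ± 0.26 (SE, adjusted p = 0.0178). The host difference of Punta Onah males depended on mating status in 43 members, against 8.82% of all transcripts, and in 27 without the replicates numbered 2. In 28 of the higher members it was more negative, and in 14 of the lower members more positive, in mated than in nonmated males, against 4.03% more negative and 4.79% more positive among all transcripts. For FBtr0168369 this mated minus nonmated difference in host effect was -4.02 ± 0.34 (SE, adjusted p = 1.23e-16).

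Fewer members passed for host in nonmated males of the other populations. In OPNM 7 members passed, against 4.44% of all transcripts. In Punta Prieta 0 members and 0% of all transcripts passed in limma, with 8 members and 508 transcripts at an unadjusted p under 0.05; with array weights 2 members passed. In San Quintin 31 members passed, against 22.4% of all transcripts, and here the higher members were mostly lower on organ pipe, 22 against 3 that were higher, while 10.1% of all transcripts were lower and 12.3% higher. FBtr0168369 had 11.10 ± 0.21 in organ pipe and 12.28 ± 0.67 in agria nonmated males of San Quintin (SD, n = 4 each), a difference of -1.18 ± 0.24 (SE, adjusted p = 0.00111). Without the replicates numbered 1, 0 members and 3 of all transcripts passed in San Quintin in limma, with 18 members at an unadjusted p under 0.05. With array weights 0 members and 28 of all transcripts passed there, with 20 members at an unadjusted p under 0.05. The loss thus ran over the whole array and is no result about the members. Replicate 1 of San Quintin agria nonmated males had the highest mean of its group over the higher members (11.18). Without the replicates numbered 3, 0 members and 3 of all transcripts passed in OPNM, with 8 members at an unadjusted p under 0.05. The host difference of nonmated males in Punta Onah differed from the mean of that in the other 3 populations in 71 members, against 36.3% of all transcripts. It was more positive in 45 of the higher and more negative in 21 of the lower members, against 15.2% and 21.1% of all transcripts. The same agria nonmated arrays of Punta Onah enter here, so these counts too are favoured by the rule and cannot be told apart from array order. For FBtr0168369 the difference was 4.79 ± 0.28 (SE, adjusted p = 4.63e-27), and for FBtr0174584 1.12 ± 0.25 (SE, adjusted p = 0.000274).

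The region difference of males depended on host in 52 members, against 20.9% of all transcripts. In 36 of the higher members it was more negative, and in 14 of the lower members more positive, on organ pipe than on agria. Of all transcripts 8.54% were more negative and 12.4% more positive. Over the higher members the medians on organ pipe and agria were 0.91 and 0.94 in mated males, and 0.12 and 1.13 in nonmated males. Among organ pipe nonmated males, where Punta Onah did not stand apart, 41 of the 69 higher members kept their direction. Over the lower members the medians were smaller in size on organ pipe in mated and in nonmated males. FBtr0168369 had a region difference of 1.27 in organ pipe mated and -1.22 in organ pipe nonmated males, against 1.89 in agria mated and 1.69 in agria nonmated males; the organ pipe minus agria value was -1.76 ± 0.17 (SE, adjusted p = 1.41e-12). FBtr0175544, a higher member, gave -1.74 ± 0.23 (SE, adjusted p = 1.24e-07), and FBtr0175008, a lower member, 0.80 ± 0.12 (SE, adjusted p = 1.27e-06). Without Punta Onah 6 members passed, against 8.18% of all transcripts, and FBtr0175544 (-1.28) and FBtr0175008 (0.72) were among them while FBtr0168369 was not (-0.54). None of the 2 most positive and 2 most negative members passed; their adjusted p-values lay between 0.0665 and 0.981.

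Mating changed part of the set in males. Of the members 25 passed, against 7.94% of all transcripts (11 without the replicates numbered 2): 8 higher members were higher and 12 lower in mated males, and 5 lower members were higher. Of all transcripts 6.44% were higher and 1.5% lower. The 2 members with the most positive region differences had the smallest p-values among the rises. FBtr0172763 was higher in mated than in nonmated males by 0.96 ± 0.08 (SE, adjusted p = 2.97e-17). In San Quintin it had 13.04 ± 0.44 in mated (SD, n = 6) and 12.28 ± 0.36 in nonmated males (n = 8), and in Punta Prieta 13.40 ± 0.10 in mated (n = 7) and 12.43 ± 0.37 in nonmated males (n = 8). In OPNM it had 11.89 ± 0.54 in mated and 10.70 ± 0.42 in nonmated males, and in Punta Onah 11.50 ± 0.26 in mated and 10.58 ± 0.38 in nonmated males (n = 8 each). The rise was seen in all 4 populations, and in each of them it was larger than the SD of either group. FBtr0175386 was higher in mated males by 0.86 ± 0.10 (SE, adjusted p = 3.50e-11). It had 11.67 ± 0.20 in mated and 10.69 ± 0.65 in nonmated males of San Quintin, and 12.06 ± 0.19 in mated and 10.61 ± 0.55 in nonmated males of Punta Prieta. It had 9.29 ± 0.64 in mated and 8.78 ± 0.31 in nonmated males of OPNM, and 9.39 ± 0.57 in mated and 8.91 ± 0.33 in nonmated males of Punta Onah. In OPNM and Punta Onah its mated and nonmated means differed by less than the SD of the mated males.

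The members lowered in mated males did not pass without Punta Onah. FBtr0168369 (-0.40 ± 0.09, SE, adjusted p = 0.000625) and FBtr0167501 (-0.52 ± 0.12, SE, adjusted p = 0.00110) were the 2 named by the smallest p. In the fit without Punta Onah 9 members passed, against 3.52% of all transcripts, all of them higher in mated males. FBtr0172763 (0.98) and FBtr0175386 (0.98) were among these, while FBtr0168369 then had 0.15. The region difference of FBtr0175386 was larger in mated than in nonmated males by 0.72 ± 0.20 (SE, adjusted p = 0.0334); without Punta Onah the value was 0.71 and its adjusted p 0.117. The region difference depended on mating in 16 members, against 2.33% of all transcripts, and in 3 members without the replicates numbered 1. Of these, 14 were higher members with a more positive value in mated males (0.95% of all transcripts) and 2 were lower members with a more negative value (1.38%). Without Punta Onah 0 members and 74 transcripts passed in limma, with 17 members and 2500 transcripts at an unadjusted p under 0.05.

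In females mating changed few members: 3 passed, against 8.56% of all transcripts. FBtr0162636 averaged 10.62 ± 0.23 in mated and 10.09 ± 0.21 in nonmated females (SD, n = 31 each), a difference of 0.53 ± 0.07 (SE, adjusted p = 3.49e-10). FBtr0166351 was higher by 0.32 ± 0.08 and FBtr0164366 lower, with -0.46 ± 0.15 (SE, adjusted p = 0.0329). For these 2 members with the most positive region differences the values in females were 0.17 ± 0.08 for FBtr0172763 (SE, adjusted p = 0.194) and 0.20 ± 0.10 for FBtr0175386 (SE, adjusted p = 0.221). The mating difference depended on sex in 15 members, against 7.67% of all transcripts, and in 6 without the replicates numbered 3. FBtr0172763 was among these with a male minus female value of 0.79 ± 0.11 (SE, adjusted p = 1.41e-07) and FBtr0175386 with 0.65 ± 0.14 (SE, adjusted p = 0.000634). Without Punta Onah 5 members passed, these 2 included, with 0.76 and 0.75.

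**Figure D5:**
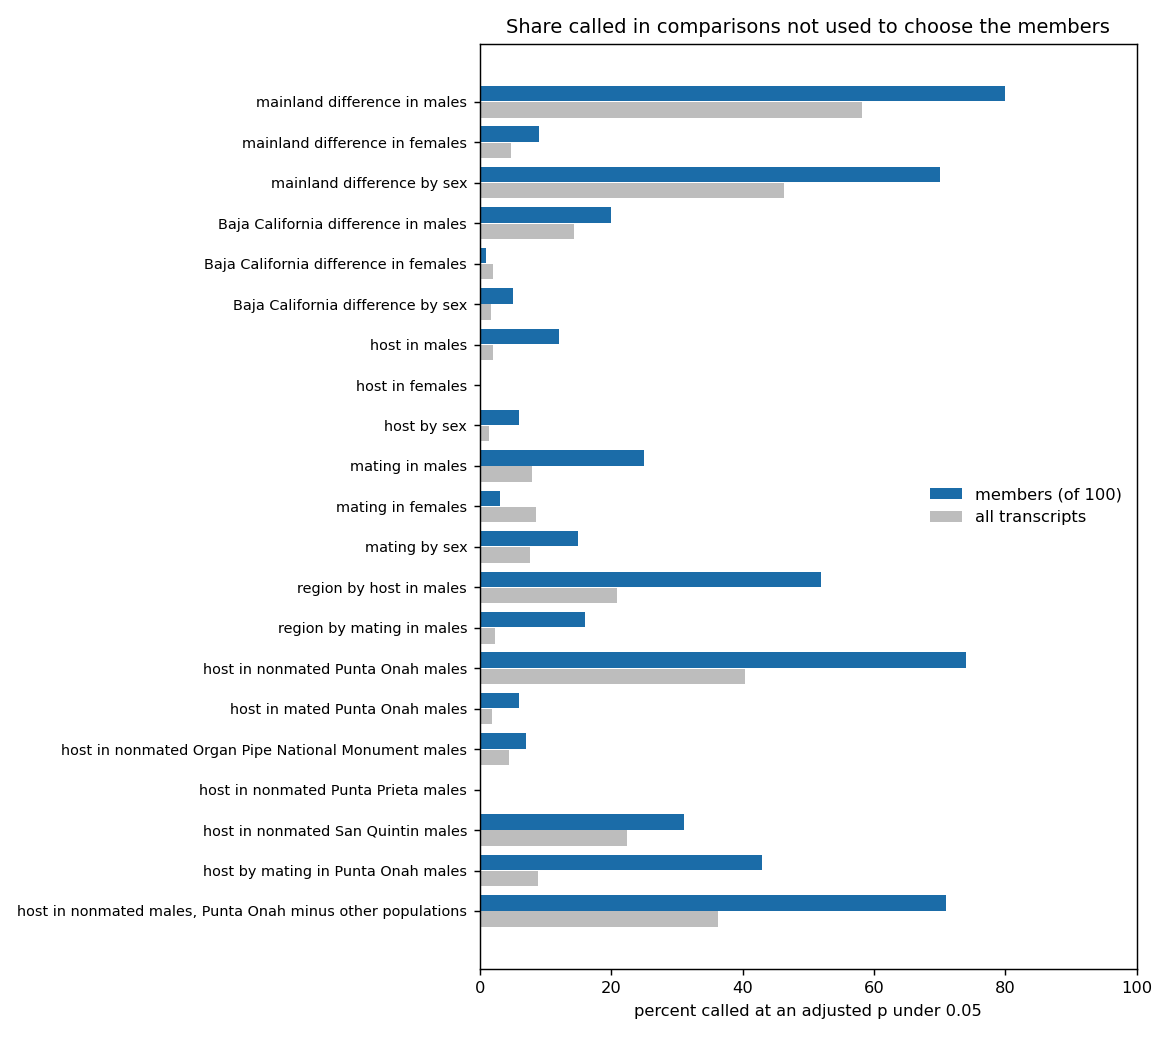
Share of the 100 members and of all 14528 transcripts that passed at an adjusted p under 0.05 in each comparison (horizontal bars, percent). The widest gaps are in males: 74 against 40.4% for host in nonmated Punta Onah males, 71 against 36.3% for the difference of that from the other populations, 43 against 8.82% for host by mating in Punta Onah males and 52 against 20.9% for region by host. Each of these takes in Punta Onah male arrays that stood apart and entered the average choosing the members, so these gaps are favoured by the rule. In females the members lie within 6 percentage points of all transcripts.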

How the data were processed

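The table holds 14528 transcripts on 127 arrays. Its deposited values are on a log2 scale and were made by the authors with RMA, per the submitters' processing notes; the scale was inferred from the values (4.64 to 15.78). RMA equalises arrays only in part here, since array medians ran between 10.15 and 10.64. Scanner files, slides and scan dates were not used here, and the number of arrays limits the precision. No source used here gives the tissue.

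Groups came from the titles. In 4 cases a pair of arrays of 1 group carried the same replicate number and was averaged, leaving 123 replicates (27 groups of 4, 5 of 3). With limma 3.58.1 in R 4.3.3, a mean for each of 32 groups was fitted to every transcript (lmFit, contrasts.fit, eBayes; 91 residual degrees of freedom). Contrasts weighted groups equally, tests were two-sided, and p-values were adjusted by Benjamini-Hochberg over all 14528 transcripts. The method was tested on simulated data.

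Of the 21 comparisons, 14 were planned and 7 within populations or between them were added after the values had been seen. The members, the lists and the comparisons were chosen with earlier results of these data known. Transcripts were named as the 2 with the most positive and the 2 with the most negative region difference in males and, per comparison, up to 2 passing members in each direction with the smallest p. Gene lists need names and were not used, since 0 identifiers matched the RefSeq table (assembly ASM1815372v1, 15130 genes); no sequence is shown for the same reason. Alternatives were quantile normalization applied again, a shift to a common median, removal of the dimmest 25% of transcripts, arrays kept separate, a block for the replicate number, a fit to 1 sex, array weights, leaving out the 2 male arrays nearest the females, each replicate number in turn, and, added later, Punta Onah or OPNM arrays.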

Additional observations from a re-analysis of the deposited data

Results flagged for a closer look

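Chance marks about 1 in 20 groups, and 5 of 54 group values over the members had a replicate far from the others of its group. Replicate 2 of OPNM agria mated females had the lowest mean of its group over the higher members (9.50). Replicate 2 of OPNM agria nonmated males (8.69) and replicate 1 of OPNM organ pipe nonmated females (8.74) had the highest mean over the lower members of their groups. Replicate 1 of San Quintin agria nonmated males had the highest mean of its group over the higher (11.18) and over the lower members (8.50).

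The following differences between groups passed limma's test of the difference itself, in log2 units. OPNM minus Punta Onah in males minus that in females was 2.91 for FBtr0168369, 1.64 for FBtr0175156, 0.54 for FBtr0174584, -0.48 for FBtr0172644, -1.22 for FBtr0165342 and -1.67 for FBtr0171088. San Quintin minus Punta Prieta in males minus that in females was 0.53 for FBtr0175053, 0.63 for FBtr0164467 and -0.72 for FBtr0166423. Organ pipe minus agria in males minus that in females was 0.63 for FBtr0167575, -0.40 for FBtr0175008 and -0.58 for FBtr0165836. Mated minus nonmated in males minus that in females was 0.79 for FBtr0172763, 0.65 for FBtr0175386, 0.60 for FBtr0168069, -0.38 for FBtr0162636 and -0.50 for FBtr0168369.

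The region difference of males on organ pipe minus that on agria was 0.80 for FBtr0175008, 0.74 for FBtr0165109, -1.74 for FBtr0175544 and -1.76 for FBtr0168369. The region difference of mated minus that of nonmated males was 1.34 for FBtr0168369, 0.73 for FBtr0175156, 0.72 for FBtr0175386, -0.42 for FBtr0175008 and -0.63 for FBtr0170548. In Punta Onah males the host difference of mated minus that of nonmated males was 1.56 for FBtr0175574, 1.28 for FBtr0166354, -2.59 for FBtr0175156 and -4.02 for FBtr0168369. The host difference of nonmated Punta Onah males minus the mean of that in the other populations was 4.79 for FBtr0168369, 2.43 for FBtr0175156, 1.12 for FBtr0174584, -1.27 for FBtr0175008 and -1.62 for FBtr0175574.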

How the results depend on the processing

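Counts are members passing, given without the share of all transcripts. The number of all transcripts passing can move as well: for host in males it was 290 in the main fit and 33 without Punta Onah. A changed count is thus no result about the members alone. Array weights, whose estimation stopped before convergence, gave other counts for mainland in females (34), Baja California in males (31), in females (23) and by sex (27), host in males (33), in females (19) and by sex (24), and mating in males (45), in females (18) and by sex (40). They also gave 24 for host in nonmated OPNM males, 2 in Punta Prieta and 0 in San Quintin; the cause was not tested. A fit to 1 sex gave 14 for mainland and 2 for Baja California in females, 4 for host in males, 7 for region by mating, and 1, 0 and 15 for host in mated Punta Onah, nonmated OPNM and nonmated San Quintin males. Arrays kept separate gave 8 for Baja California by sex, quantile normalization 2 for host by sex, and the median shift 5 for mating in females. Removal of the dimmest 25% left 62 members to test and gave 52 for mainland in males, 45 by sex, 13 for Baja California in males, 4 for host in males, 2 by sex, 44 for host in nonmated Punta Onah males, 28 for host by mating there and 44 against the other populations.

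Without Punta Onah, 0 passed for host in males, 1 by sex, 9 for mating in males, 5 by sex, 2 for Baja California by sex, 6 for region by host and 0 for region by mating; differences turned for FBtr0166760 (host in males, -0.20), FBtr0168369 (mating in males, 0.15, and by sex, 0.0859) and FBtr0175156 (region by mating, -0.10). Organ pipe nonmated flies alone gave 15, 1 and 0 for mainland in males, in females and by sex. There the male difference turned for FBtr0175156 (-0.0655), FBtr0171088 (0.12) and FBtr0174584 (-0.30), and the difference by sex for FBtr0168369 (-0.36), FBtr0175156 (-0.58) and FBtr0174584 (-0.24). The rule kept 38 members without the 12 Punta Onah male arrays, 24 without Punta Onah and 37 without OPNM. The median male region difference, signed by the set, was 0.35 without the 12 arrays, 0.42 without Punta Onah and 1.08 without OPNM, against 0.72. These settings also hold fewer samples.

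Leaving out each replicate number in turn gave, lowest to highest, 3 to 7 for mainland in females, 3 to 14 for Baja California in males, 0 to 5 in females and by sex, 0 to 9 for host in males, 0 to 7 by sex, 11 to 23 for mating in males, 6 to 10 by sex, 3 to 17 for region by mating, 1 to 3 for host in mated Punta Onah males, 0 to 6 in nonmated OPNM males, 0 to 35 in nonmated San Quintin males, and 27 to 40 for host by mating in Punta Onah males. For mainland in males it gave 72 to 77. The rule then kept 68 to 86 members. Same-numbered replicates of different groups did not deviate together on average (mean correlation -0.0021, with 606 of 1832 pairs above 0.1). Single pairs ran from -0.80 to 0.81, and 38 of 123 replicates lay closest to those of their own number. A mean over all pairs does not describe each pair of groups, and what the numbers share in single groups was not tested. With the replicate block 80 members passed for mainland in males, and no count moved by more than 1.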
